A study of Canis lupus familiaris with 4 samples.

Results

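Of 15115 dog genes with a probe set of their own symbol on the array, 7 were taken as the hyaluronan, tenascin and versican genes: the synthases HAS2 and HAS3, the hyaluronidase HYAL2, the receptors CD44 and HMMR, and the matrix genes VCAN and TNC. They were chosen by gene symbol, with earlier results of these arrays known, and all 15 of their probe sets, of 42924 in all, are described. Gene expression had been measured in 4 canine glioblastoma lines with 1 GeneChip Canine Genome 2.0 array per line. J3T-1, described by the authors as high in annexin A2 (ANXA2), and J3T-2, described as low in ANXA2, came from the same parental J3T cells. Sample titles give the line only, so a line labelled ANXA2-high or ANXA2-low is one that the authors describe so. ANXA2 had been knocked down in J3T-1 to give J3T-1shA and overexpressed in J3T-2 to give J3T-2A. Ratios of J3T-2A over J3T-2 are given as the J3T-2 pair, those of J3T-1 over J3T-1shA as the J3T-1 pair, and those of J3T-1 over J3T-2 as the parental pair. All 4 lines grew in the same serum-containing medium. The modified lines were compared with the unmodified line they came from, and no vector control line was analysed here, so the vector and ANXA2 cannot be told apart.

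Hyaluronan is a long, unsulfated sugar polymer that HAS enzymes spin out of the cell at the plasma membrane from activated sugars made in the cytosol. It fills the spaces of the brain matrix, where lecticans such as versican link it to tenascins, and it is cut by hyaluronidases and read by receptors such as CD44. Tenascin-C and versican are deposited in quantity around blood vessels and tumor cells of gliomas, and cell-surface ANXA2 is itself known as a binding partner of tenascin-C. The comparison asked how the genes for synthesis, breakdown, receptors and bound matrix stood in lines that differ in their ANXA2 label.

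Values are MAS 5.0 signals, which are linear intensities, and they can be compared between arrays for 1 probe set but not between probe sets. Genes counted as measured in a pair if the brighter of its 2 arrays reached 250, and as different at a ratio over 2-fold. Each gene is represented by its probe set with the highest mean signal, and the others are given beside it. With 1 array per line there were no replicates, so the ratios carry no test, and precision is limited by the number of arrays. As a yardstick, the difference in log2 ratio between the 2 brightest probe sets of a gene had an SD of 0.29 in the J3T-2 pair (3716 genes), 0.37 in the J3T-1 pair (3760 genes) and 0.37 in the parental pair (3759 genes). Both probe sets had to reach 250 on the brighter array of the pair. The SD reflects how far 2 probe sets of a gene differ on the same 2 RNA samples, and variation between cultures is not part of it. The median signal of all probe sets was 101.8 to 106.5 per array. The brightest ANXA2 probe set had signals of 28656 on the J3T-1 array, 30093 on J3T-1shA, 30103 on J3T-2 and 28775 on J3T-2A. A second bright one had 24128, 25725, 30311 and 35651 in the same order, and was thus higher on J3T-2A than on J3T-2 but lowest on J3T-1. The remaining one was under 250 on every array (14.7 to 167.8). ANXA2 does not check the labels, and lines are named as labelled throughout. Of 4 astrocyte markers, GFAP (8.2 to 21.6), AQP4 and ALDH1L1 were under 250 on every array and SLC1A3 was over it on all 4 (1996 to 5506), as was the neural stem cell factor SOX2.

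HAS2 and TNC were over 2-fold higher on the arrays of both lines labelled ANXA2-high than on those of their partners, VCAN was over 2-fold higher in the J3T-1 pair and within 2-fold in the J3T-2 pair, and CD44, HMMR and HYAL2 were within 2-fold in both pairs. Whether a ratio differed between the pairs was not tested. Of the 6 measured genes, 2 were over 2-fold higher and 0 lower in the J3T-2 pair, where 1.69% of all 6860 measured genes were over 2-fold higher and 2.1% lower. In the J3T-1 pair, 3 of 6 were higher and 0 lower, beside 3.8% and 4.26% of 6944 genes. In the parental pair, 2 of 6 were higher and 0 lower, beside 2.94% and 4.05% of 6967 genes. Since the genes were chosen with these ratios known, nothing is read from the counts. The median log2 ratio of the 6 genes was 0.15 in the J3T-2 pair, 1.09 in the J3T-1 pair and 0.35 in the parental pair, and that of all measured genes was -0.0034, 0.033 and 0.027. The third comparison shares its arrays with the first 2. Nearest to the 2-fold threshold in the J3T-1 pair were VCAN at 2.71-fold on one side and CD44 at 1.67-fold on the other. In the J3T-2 pair they were TNC at 3.57-fold and VCAN at 1.17-fold, and in the parental pair they were TNC at 6.12-fold and CD44 at 1.31-fold.

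**Figure D1:**
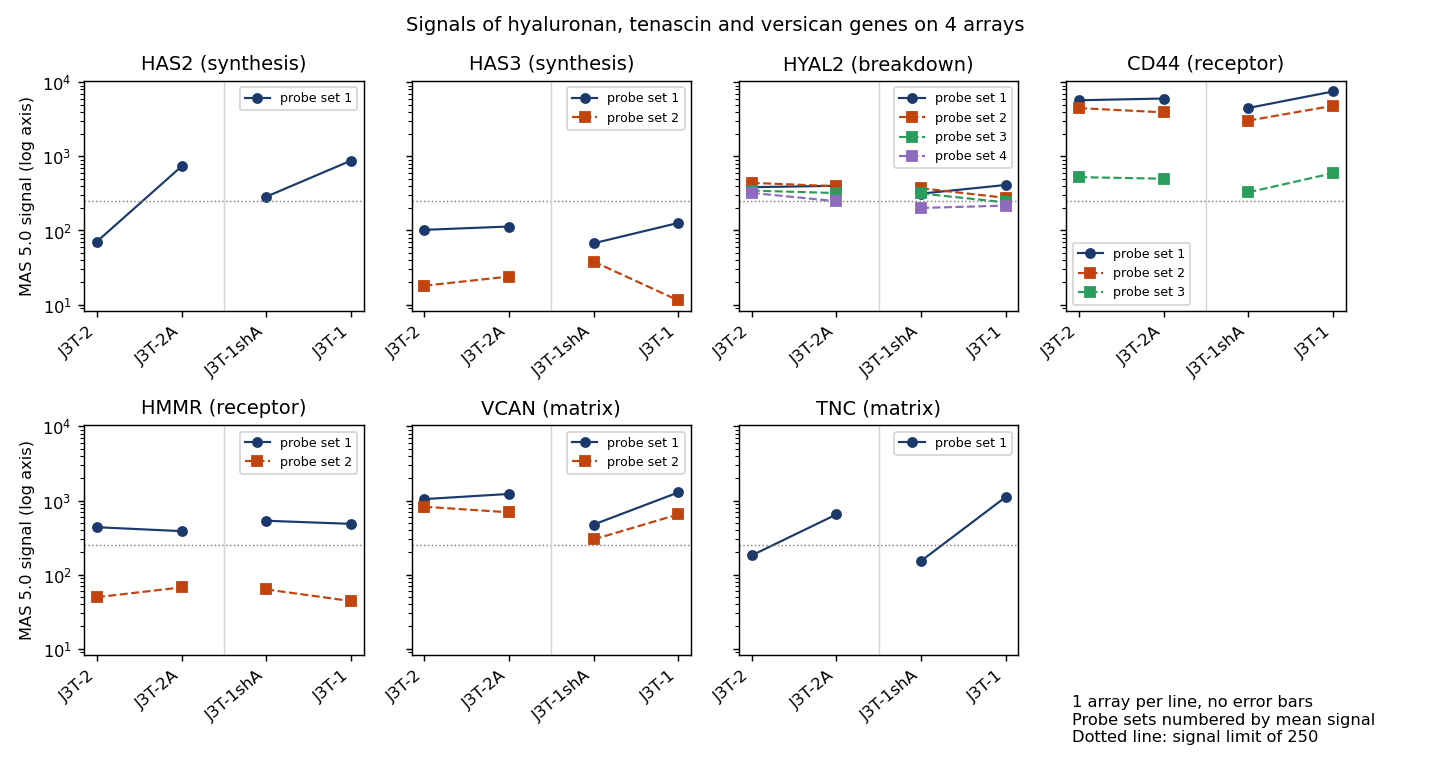
MAS 5.0 signal (y axis, log scale) of every probe set of the 7 genes on the 4 arrays (x axis), 1 array per line and no error bars. Lines join the arrays of 1 pair, the dotted line is the signal limit of 250, and HAS2 and TNC stand higher on J3T-2A than on J3T-2 and on J3T-1 than on J3T-1shA, whereas both VCAN probe sets stand lowest on J3T-1shA.

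Among the synthases, only HAS2, which makes long hyaluronan chains, reached the limit. Its single probe set had a signal of 70.9 on the J3T-2 array, 733.1 on J3T-2A, 285.4 on J3T-1shA and 874.9 on J3T-1. The arrays of both ANXA2-high lines were thus the brightest, and that of J3T-2 lay under the median of all probe sets. The signal was 10.3-fold higher in the J3T-2 pair (log2 ratio 3.37, the fifth highest of 6860 measured genes). Because the lower signal was under the limit, where no detection call tells a signal from background, the ratio against the limit itself was also taken, and was 2.93-fold. With a pseudocount of 80 the log2 ratio was 2.43. In the J3T-1 pair, with both arrays over the limit, HAS2 was 3.07-fold higher (log2 ratio 1.62, rank 89 of 6944). In the parental pair it was 12.3-fold higher, or 3.50-fold against the limit. Between the lines labelled ANXA2-low, J3T-1shA was 4.03-fold over J3T-2 for HAS2, but 1.14-fold against the limit, which is not over 2-fold. HAS2 has no second probe set here, so its ratios could not be set beside another.

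HAS3, which makes hyaluronan of shorter length, was under the limit on every array by both probe sets. The brighter one had signals of 102.0 on J3T-2, 113.2 on J3T-2A, 67.2 on J3T-1shA and 126.4 on J3T-1, and the dimmer one had 18.0, 23.9, 38.1 and 11.4. The probe sets pointed in opposite directions in the J3T-1 pair (log2 ratios 0.91 and -1.74), and no difference is read from signals this low. HAS1, the remaining synthase, was likewise under the limit, with signals of 77.4 to 136.4.

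HYAL2, a hyaluronidase anchored at the cell surface that cuts long hyaluronan into intermediate fragments, was close to the limit by all 4 probe sets, and these did not point the same way. The brightest had signals of 384.1 on J3T-2, 401.0 on J3T-2A, 313.8 on J3T-1shA and 411.4 on J3T-1. Its log2 ratios were 0.06 in the J3T-2 pair, 0.39 in the J3T-1 pair and 0.10 in the parental pair, and only the second of these was larger than the SD between probe sets. The second had signals of 439.1, 395.6, 371.7 and 275.7 in the same order of lines, which made J3T-1 its lowest array, with a log2 ratio of -0.43 in the J3T-1 pair and -0.67 in the parental pair. The third also had its lowest signal on J3T-1 (239.6, against 316.0 to 345.7 on the others), and the dimmest had 201.3 to 321.3. In the J3T-2 pair the other 3 had log2 ratios of -0.15, -0.11 and -0.37. No probe set of HYAL2 was over 2-fold different in any comparison, and its direction depends on the probe set.

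CD44, the main hyaluronan receptor and a marker of the mesenchymal type of glioblastoma, was lowest on the J3T-1shA array and highest on the J3T-1 array by all 3 probe sets. The brightest had signals of 5714 on J3T-2, 6031 on J3T-2A, 4498 on J3T-1shA and 7508 on J3T-1. The second had 4477, 3928, 3039 and 4815, and the dimmest 524.9, 499.5, 327.7 and 593.0. In the J3T-1 pair their log2 ratios were 0.74, 0.66 and 0.86, each larger than the SD of 0.37 between probe sets and each within 2-fold. In the J3T-2 pair they were 0.08, -0.19 and -0.07, all smaller than the SD of 0.29. In the parental pair only the brightest, at 0.39, passed the SD of 0.37, and the others gave 0.11 and 0.18. The middle of the order, J3T-2 and J3T-2A, was not separated by any CD44 probe set beyond that spread.

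HMMR, a hyaluronan-binding protein (RHAMM) that also works at the mitotic spindle, differed little. Its brighter probe set had signals of 437.1 on J3T-2, 386.7 on J3T-2A, 534.1 on J3T-1shA and 485.0 on J3T-1. It was thus lower on the array of each ANXA2-high line, with log2 ratios of -0.18 and -0.14, both smaller than the spread between probe sets. The other probe set was under the limit throughout (44.1 to 67.4). The 7 measured spindle and mitosis genes set beside HMMR, which include TPX2 and AURKA, were all within 2-fold in the 3 comparisons, with median log2 ratios of 0.04 in the J3T-2 pair, -0.28 in the J3T-1 pair and 0.13 in the parental pair.

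TNC, which encodes the matrix glycoprotein tenascin-C, had signals of 182.0 on J3T-2, 649.2 on J3T-2A, 152.9 on J3T-1shA and 1114 on J3T-1. Both ANXA2-high lines were over the limit and both ANXA2-low lines under it. The signal was 3.57-fold higher in the J3T-2 pair, or 2.60-fold against the limit, and ranked 30 of 6860. It was 7.28-fold higher in the J3T-1 pair, or 4.45-fold against the limit, and ranked 24 of 6944. In the parental pair it was 6.12-fold higher, or 4.45-fold against the limit. The lowest neighbours, J3T-2 and J3T-1shA, had a log2 ratio of -0.25 (J3T-1shA relative to J3T-2). Both signals were under the limit, where the SD between probe sets was not taken, so no difference is read there. The highest, J3T-2A and J3T-1, had a log2 ratio of -0.78 (J3T-2A relative to J3T-1) against an SD of 0.36. TNC has 1 probe set, of the type whose probes match more than 1 transcript, so splice forms of tenascin-C cannot be told apart.

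VCAN, which encodes the hyaluronan-binding proteoglycan versican, was lowest on the J3T-1shA array by both probe sets. The brighter had signals of 1047 on J3T-2, 1228 on J3T-2A, 474.4 on J3T-1shA and 1287 on J3T-1. The other had 825.6, 694.5, 298.7 and 651.0. The J3T-1shA array thus stood apart from the other 3, which lay close together. VCAN was 2.71-fold and 2.18-fold higher in the J3T-1 pair by the 2 probe sets (log2 ratios 1.44 and 1.12). In the J3T-2 pair the log2 ratios were 0.23 and -0.25, and in the parental pair they were 0.30 and -0.34, so that the probe sets took opposite signs at sizes under the spread. J3T-1shA was also 2.21-fold and 2.76-fold lower than J3T-2.

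**Figure D2:**
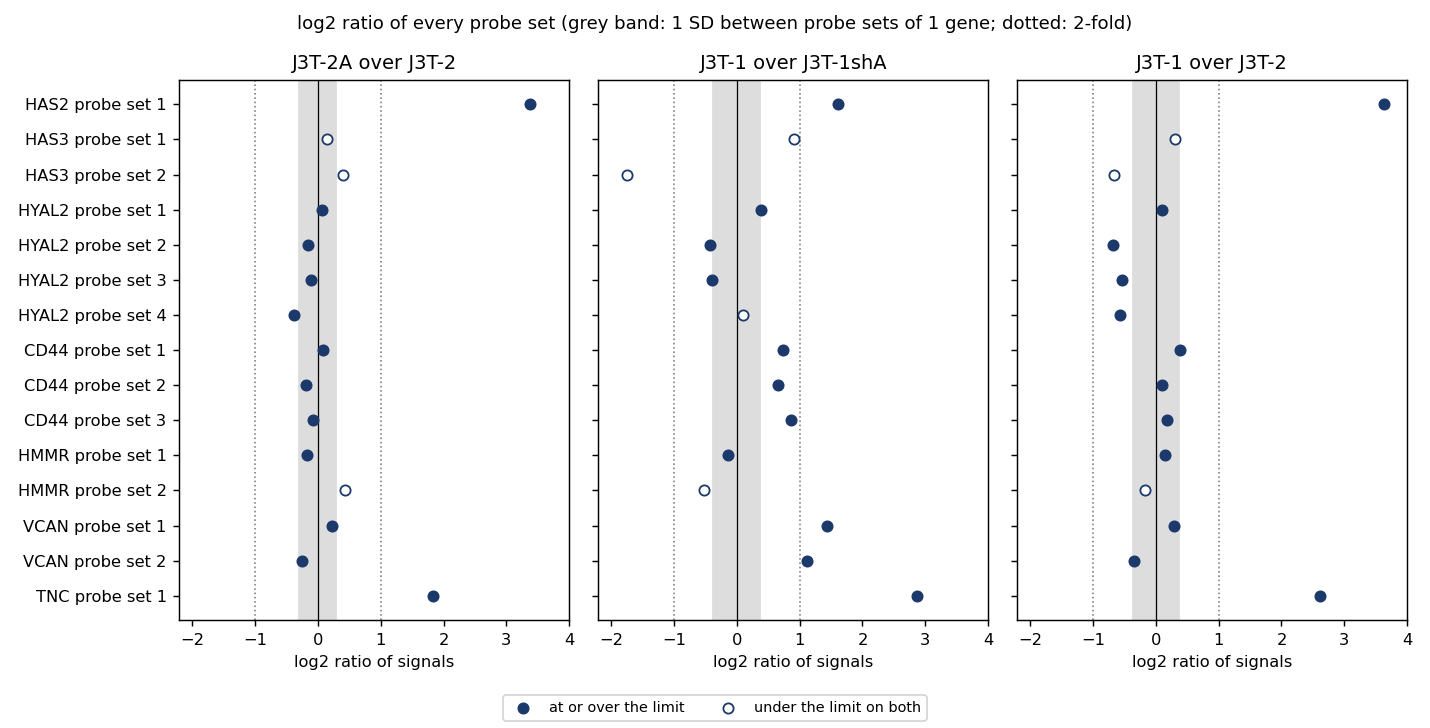
log2 ratio of signals (x axis) of every probe set of the 7 genes (y axis) in 3 comparisons, 1 array per line. Filled points have at least 1 array at or over the signal limit of 250, open points none, the grey band is 1 SD of the difference between probe sets of 1 gene (0.29, 0.37 and 0.37) and dotted lines mark 2-fold. HAS2 and TNC lie beyond 2-fold in all 3 panels, both VCAN probe sets in the middle panel only, and the CD44 probe sets lie together between the band and 2-fold there.

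The 2 lines labelled ANXA2-high were closer to each other than to their partners for HAS2 and TNC. Between J3T-2A and J3T-1, 0 of the 6 measured genes were over 2-fold different, where 4.66% of 6850 measured genes were, in either direction. The genes are few and were chosen with earlier results of these arrays known, so nothing is read from the count. As J3T-2A over J3T-1, HAS2 had a log2 ratio of -0.26, VCAN of -0.07, CD44 of -0.32, HMMR of -0.33 and HYAL2 of -0.04, and only TNC, at -0.78, was beyond the SD of 0.36. Between the lines labelled ANXA2-low, J3T-1shA over J3T-2, 1 of 5 measured genes was over 2-fold higher and 1 lower, where 9.7% of 7012 measured genes were over 2-fold different in either direction. Nothing is read from this count either. VCAN was the lower one. HAS2 was the higher one only by its signal under the limit on J3T-2, and not against the limit (1.14-fold), CD44 was 1.27-fold lower by its brightest probe set, and TNC was under the limit on both arrays.

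The order of the arrays was J3T-1, J3T-2A, J3T-2 and J3T-1shA from the highest down for the brightest probe sets of CD44, HYAL2, VCAN and TNC. For HAS2 it was J3T-1, J3T-2A, J3T-1shA and J3T-2, and for HMMR it was J3T-1shA, J3T-1, J3T-2 and J3T-2A. By these probe sets, neighbours were closer than the SD between probe sets for J3T-1 and J3T-2A in HAS2, VCAN, CD44 and HYAL2. The same held for J3T-2A and J3T-2 in VCAN, CD44 and HYAL2, for J3T-2 and J3T-1shA in CD44 and HYAL2, and for every neighbour in HMMR. TNC was under the limit on J3T-2 and J3T-1shA, where that SD was not taken. Not every probe set gave these results. As J3T-1shA over J3T-2, the other CD44 probe sets had log2 ratios of -0.56 and -0.68, beyond the SD of 0.40.

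The wider pathway was described by lists of genes with related roles. Of 96 genes in 9 lists of synthesis, breakdown, receptors, bound matrix, tenascins, lectican cleavage, chondroitin sulfate synthesis, CD44 partners and mitotic genes, 83 had a probe set with their single symbol, and 43 were measured in the J3T-2 pair. Only HAS2 and TNC were over 2-fold higher there and 0 were lower, and in the J3T-1 pair, HAS2, VCAN and TNC were the 3 higher of 43 with 0 lower. Leaving out the 7 genes, 0 of 37 measured genes were over 2-fold different in either pair by their brightest probe set. Over all measured genes, 1.69% were higher and 2.1% lower in the J3T-2 pair, and 3.8% and 4.26% in the J3T-1 pair, so that few calls stand in lists of this size either way and nothing particular to the pathway is read from the count. The median log2 ratios of the 37 were 0.04 and -0.04. Pathway genes within 2-fold that are named below were chosen after their values were seen, apart from HAS1, HYAL1, LYVE1, TLR4, the lecticans, ITGA9, ITGAV, ITGB1 and EGFR.

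Of 6 measured enzymes that make the UDP-sugars from which hyaluronan is built, 4 were lower in the J3T-1 pair, where HAS2 was higher. UGDH, which makes UDP-glucuronic acid, had signals of 4149 on J3T-2, 4914 on J3T-2A, 4834 on J3T-1shA and 3886 on J3T-1, and thus was higher in J3T-2A and lower in J3T-1 than in its partner. UGP2, which makes UDP-glucose, had 4649, 5849, 3880 and 2916. GFPT1, the first enzyme of the hexosamine pathway, had 1182, 1490, 1668 and 948.3. UAP1, which makes UDP-N-acetylglucosamine, had 3082, 4815, 3401 and 2258. By all 12 measured probe sets of these 4 genes the ratio was above 1 in the J3T-2 pair (log2 0.09 to 0.64) and below 1 in the J3T-1 pair (-1.05 to -0.09) and in the parental pair (-1.06 to -0.09). These ratios were within 2-fold except for 1 probe set in the J3T-1 pair and 2 in the parental pair, none of them the brightest of its gene. Probe sets of a gene share the RNA and are not replicates. GNPNAT1 and PGM3, of the same pathway, did not share this pattern, with log2 ratios of -0.49 and 0.01 in the J3T-2 pair and 0.65 and 0.04 in the J3T-1 pair. GNPNAT1 was thus higher in the J3T-1 pair, as HAS2 was, by its brightest probe set. Its other probe sets gave 0.09 and 0.13 there, smaller than the SD of 0.37. The synthesis list as a whole had median log2 ratios of 0.33 and -0.31 over 7 measured genes.

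By their brightest probe sets, all 6 measured breakdown genes were within 2-fold in the 3 comparisons. Their median log2 ratios were -0.26 in the J3T-2 pair, 0.29 in the J3T-1 pair and -0.15 in the parental pair. CEMIP2, a cell-surface hyaluronan-degrading protein, had signals of 1182 on J3T-2, 843.4 on J3T-2A, 926.2 on J3T-1shA and 1074 on J3T-1. HEXA, a lysosomal hexosaminidase, had 1473, 1106, 863.6 and 855.8, and was thus highest on J3T-2. The lysosomal hyaluronidase HYAL1 had 275.6, 285.3, 235.7 and 343.5 by its brightest probe set. Its second probe set, also measured, was 13.0-fold lower in the J3T-2 pair and 4.75-fold higher in the J3T-1 pair.

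Of the receptors only CD44 and HMMR were measured. The lymphatic endothelial receptor LYVE1 (5.6 to 29.8) and the innate receptor TLR4 (19.8 to 39.9) stayed below 250 on all 4 arrays. Among the other lecticans, ACAN, NCAN and BCAN were all under the limit, with signals of at most 48.7, 4.7 and 72.2 by their brightest probe sets, so that VCAN was the only lectican measured. HAPLN3, a link protein that fastens lecticans to hyaluronan, had signals of 637.6 on J3T-2, 474.3 on J3T-2A, 497.0 on J3T-1shA and 447.2 on J3T-1. ITIH3, whose product is attached to hyaluronan as a heavy chain, had 305.5, 341.7, 267.9 and 474.0 by the brightest of its 5 probe sets. In the J3T-1 pair that probe set gave a log2 ratio of 0.82, whereas the median over all 5 was negative. Of 6 lectican-cleaving ADAMTS enzymes, 4 had a probe set, and none of these reached the limit in the 3 pairs.

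Among tenascin receptors, ITGAV and ITGB1, which encode integrin subunits, were within 2-fold. ITGAV had signals of 6751 on J3T-2, 9526 on J3T-2A, 8702 on J3T-1shA and 7139 on J3T-1, which gave log2 ratios of 0.50 in the J3T-2 pair and -0.29 in the J3T-1 pair. ITGB1 had 6135, 7773, 7901 and 7853, and was thus lowest on J3T-2 with the other 3 close together. The heparan sulfate proteoglycan SDC4 had 3301, 4084, 2223 and 4138, lowest on J3T-1shA as VCAN and CD44 were. ITGA9 (5.9 to 54.4) and EGFR (6.4 to 216.1) were under the limit on every array. Of the CD44 partners, the membrane linker EZR had 6828, 8974, 11219 and 10670.3, and ADAM10, a protease that sheds CD44, had 6639, 3772, 4544 and 5486.

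**Figure D3:**
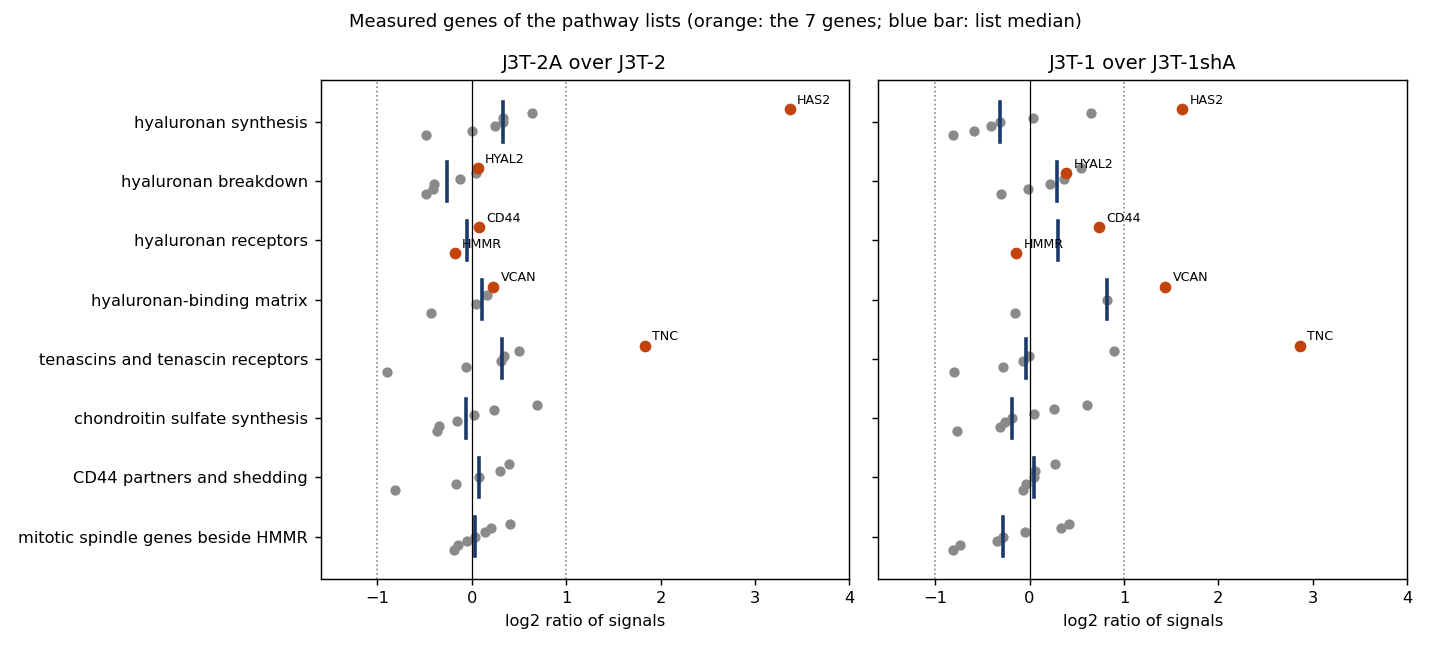
log2 ratio of signals (x axis) of each measured gene, by its brightest probe set, in 8 pathway lists (y axis) for the J3T-2 pair (left) and the J3T-1 pair (right), 1 array per line. Orange points are the named members among the 7 genes, grey points other list genes, blue bars list medians and dotted lines 2-fold, and no grey point lies beyond 2-fold in either panel.

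By a distance over the 4 arrays between log2 signals, each floored at 80 and centred on its mean, the gene nearest to HAS2 was GUCY1A1, a subunit of the nitric oxide receptor, at 0.98. Its signals were 214.8 on J3T-2, 836.3 on J3T-2A, 387.4 on J3T-1shA and 1842 on J3T-1. GEMIN6, of the complex that assembles splicing particles, and the locus LOC479874 followed at 1.27 each. Nearest to TNC were the glypican GPC3 (0.54), the adaptor STAC (0.62) and the kinase DYRK1B (0.86), all under the limit on the arrays of both ANXA2-low lines. Nearest to VCAN were the formin FMNL3 (0.07), the peptide-processing enzyme CPE (0.14) and the interferon-induced gene OAS2 (0.16). OAS2 had signals of 1355 on J3T-2, 1416 on J3T-2A, 554.8 on J3T-1shA and 1439 on J3T-1, and so, like VCAN, was lowest on J3T-1shA. With 4 arrays searched against 7235 genes, such nearness describes these arrays only.

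Markers of other cell types also differed within the pairs. Of 7 fibroblast and pericyte markers, 4 reached the limit on at least 1 array (DCN, LUM, COL1A1 and ACTA2), and PDGFRB, RGS5 and COL3A1 did not. The summed signal of the 7 was 30330 on J3T-2, 42150 on J3T-2A, 50486 on J3T-1shA and 18142 on J3T-1, and LUM and COL1A1 made up most of it on each array. Such a sum weighs probe sets by their brightness and measures no amount of a cell type. On J3T-2A against J3T-2, COL1A1 (11899 against 3799) and LUM (29213 against 25065) were higher and DCN (794.8 against 1292) was lower. On J3T-1 against J3T-1shA all 4 were lower, with ACTA2 at 562.2 against 13625 and COL1A1 at 2014 against 16842. The neuronal marker NEFL had signals of 15463 on J3T-2, 6292 on J3T-2A, 2134 on J3T-1shA and 2561 on J3T-1. SLC1A3 had 1996, 3999, 5506 and 2422, and so differed over 2-fold within both pairs, in opposite directions. Of 5 endothelial markers only PECAM1 reached the limit, on J3T-2 (773.2), and of 5 microglial markers only C1QA did. The part of these markers in the signals of the 7 genes was not tested, and in RNA from whole cultures a different share of cells and a different amount of RNA per cell cannot be told apart.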

How the data were processed

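RNA of 4 canine glioblastoma lines was hybridized to 1 GeneChip Canine Genome 2.0 array each. The authors computed signal intensities with MAS 5.0 at default settings and scaled each array globally to one trimmed mean. The deposited intensities are linear, with trimmed means (lowest and highest 2% left out) of 495.8 to 496.0, whereas the methods give a smaller target (the limit was set on the deposited scale). They hold no detection calls, and precision is limited by having so few arrays.

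The array annotation listed 29254 of 42924 probe sets with 1 symbol, and 439 with several, which were left out with the 13231 not listed. Checking 27680 symbols by Entrez identifier against the RefSeq gene table changed 0 of them. Each gene was represented by its brightest probe set on average. Ratios of 2 arrays were taken as deposited in Python 3.11.15 with pandas 2.3.3 and numpy 2.4.6, with a signal limit of 250 on the higher array and a threshold of 2-fold. The counting was checked on simulated data. Changes were placed there only in genes with signals well over the limit, so the check does not cover ratios with a signal under it. No test was run, because no line had a second array.

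The members and lists were chosen with earlier results of these data known. Named genes were the 7 genes, pathway genes over 2-fold in any of the 3 comparisons, 13 pathway genes whatever their values (no probe set carried the symbol of 1 of them, ADAMTS1), and the 3 genes nearest to each of HAS2, TNC and VCAN. Alternatives were a limit of 500, no limit, a pseudocount of 80, quantile normalization, median centring and the median of a gene's probe sets.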

Additional observations from a re-analysis of the deposited data

Results flagged for a closer look

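Of 42 hyaluronan pathway genes measured in the J3T-2 pair and the J3T-1 pair alike, 21 had ratios on opposite sides of 1 in them. Over all measured genes, 49.4% had a ratio above 1 in the J3T-2 pair and 52.9% in the J3T-1 pair. The share of all genes on opposite sides was not taken, and nothing particular to the pathway is read from the count. By their brightest probe sets, the 6 measured genes of the 7 were not among these 21. Other probe sets did fall on opposite sides. For CD44 they gave -0.19 and -0.07 in the J3T-2 pair but 0.66 and 0.86 in the J3T-1 pair. The second VCAN probe set gave -0.25 and 1.12. The dimmest of HYAL2 and the dimmer of HMMR did so too, at signals partly or wholly under the limit. The differences rest on 1 array per line and were not tested. Each value below is the log2 ratio of the J3T-1 pair minus that of the J3T-2 pair, by the brightest probe set of the gene only. Among precursor enzymes it was -1.23 for UAP1, -1.15 for GFPT1, -0.74 for UGP2 and -0.56 for UGDH, and 1.14 for GNPNAT1. Among breakdown genes it was 0.70 for CEMIP2 and 0.49 for GUSB. For the integrin subunits it was -0.78 for ITGAV and -0.35 for ITGB1. For CD44 partners it was 1.09 for ADAM10, -0.47 for EZR, 0.21 for MMP14 and -0.11 for MSN. For chondroitin sulfate enzymes it was -1.001 for CHST12 and 0.39 for B3GALT6. For mitotic genes it was -1.22 for PLK1, -0.77 for TOP2A, -0.49 for AURKA, -0.49 for KIF11, 0.47 for CDK1 and 0.46 for CENPF.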

How the results depend on the processing

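The counts of the 7 genes over 2-fold, in each direction and comparison, were unchanged under all 6 alternatives. Some of these could not have changed them. A limit of 500 could not, since each counted gene had a brighter signal over 500. Nor could dropping the limit, since HAS3, the only gene it adds, was within 2-fold by its brighter probe set. The median of probe sets leaves HAS2 and TNC as they were, with 1 probe set each. Of 264 values recomputed in all, 243 moved by less than 1 SD between probe sets or 1.5 times, and 0 called values changed sign. With a pseudocount of 80, the log2 ratios of HAS2 were 2.43 in the J3T-2 pair and 2.66 in the parental pair, and those of TNC were 1.48, 2.36 and 2.19 in the J3T-2 pair, the J3T-1 pair and the parental pair. A pseudocount draws low signals together by construction. With the median of a gene's probe sets, HMMR was 0.13 in the J3T-2 pair, HYAL2 was -0.15 in the J3T-1 pair and -0.55 in the parental pair, and the median of the hyaluronan-binding matrix list was -0.22, -0.15 and -0.70 in the 3 comparisons. With no signal limit, that list had -0.083 in the J3T-1 pair, and CD44 partners had 0.33 in the parental pair. With no limit, pathway genes over 2-fold higher and lower numbered 12 and 6 in the J3T-2 pair (2 and 0 with it), 8 and 11 in the J3T-1 pair (3 and 0) and 8 and 9 in the parental pair (4 and 2). With a limit of 500 the last were 2 and 1. These settings change which genes and probe sets enter. No fit over the J3T-1 and J3T-2 pairs together was run, since these are different lines and not replicate cultures, and with 1 array per line no replicate could be left out.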

Other observations

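Between the parental lines, 4 further pathway genes were over 2-fold different by their brightest probe set. Leaving out the 7 genes, 37 pathway genes were measured in this pair, with 2 over 2-fold higher and 2 lower. Over all measured genes, 2.94% were higher and 4.05% lower, and nothing particular to the pathway is read from the count. All 4 had their lower signal under the limit of 250. Against the limit itself, only ITGB3 was over 2-fold different, and CHSY3, CSGALNACT1 and ITIH1 were not. CHSY3, a chondroitin sulfate synthase, had signals of 339.3 on J3T-1 and 47.8 on J3T-2, and CSGALNACT1, which starts chondroitin sulfate chains, had 382.8 and 165.7. A second CHSY3 probe set, under the limit of 250 on every array, had 173.3 and 76.1. ITGB3, an integrin subunit that binds tenascin-C, had 238.3 on J3T-1 and 753.6 on J3T-2, with 415.5 on J3T-1shA and 405.0 on J3T-2A. ITIH1, a hyaluronan heavy-chain gene, had 51.8 on J3T-1 and 52.3 on J3T-1shA against 298.2 on J3T-2 and 308.3 on J3T-2A by its brightest probe set. The other 3 were under the limit, and 1 of them ran the other way between the parental lines, at 125.5 on J3T-1 and 13.6 on J3T-2.

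The probe sets of HYAL1 did not measure alike. The second had signals of 307.3 on J3T-2, 23.6 on J3T-2A, 80.7 on J3T-1shA and 383.5 on J3T-1, a log2 ratio of -3.70 in the J3T-2 pair and 2.25 in the J3T-1 pair, where the brightest gave 0.05 and 0.54. Which transcripts each reads was not tested.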
